A study of Sus scrofa with 23 samples.

Results

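The Krüppel-like factor genes KLF4 (ENSSSCG00000005437), KLF10 (ENSSSCG00000027480) and KLF17 (ENSSSCG00000024191) were followed through all 23 libraries of porcine oocytes and pre-implantation embryos. They are 3 of the 8603 genes of the deposited expression table and were taken by their identifiers, not by a measured value. The table holds 8 KLF genes in all, and 13 genes of the wider KLF and SP family. By its name the table lists differentially expressed genes, so each share of genes given below is a share within that table.

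Krüppel-like factors are transcription factors with 3 C2H2 zinc fingers at the carboxyl end, which bind GC-rich and CACCC-type DNA. KLF4 is one of the factors that reprogram somatic cells to pluripotency. KLF10 is an early response gene of TGF-beta signalling that mostly acts as a repressor through corepressors such as SIN3A. KLF17 is known from human embryos and naive pluripotent stem cells as a marker of the naive state. In the pig, the embryonic genome is mainly switched on around the 4-cell stage, and the first lineages, the inner cell mass (ICM) and the trophectoderm, separate in the blastocyst.

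In vivo fertilized Duroc embryos (IV-D), embryos cloned from Duroc donor cells (NT-D) and embryos cloned from donor cells of the Chinese Laiwu breed (NT-LW) were compared, with 8 IV-D, 8 NT-D and 7 NT-LW libraries and 1 library per condition. The stages were the mature oocyte (OC), 1-cell (1C), 2-cell (2C), 4-cell (4C) and 8-cell (8C) embryos, the morula (MO), and the parts of the cut blastocyst, of which IT held ICM with trophectoderm and TE held trophectoderm alone. IV-D oocytes and embryos came from adult Duroc sows, and all IV-D embryos had the same Duroc sire. That boar was also the only source of the NT-D donor cells, which were ear fibroblasts, and 1 Laiwu boar gave those of NT-LW, so the breed and the donor animal cannot be told apart. Clones were made with oocytes matured in vitro from slaughterhouse ovaries of hybrid sows (the label of the NT-D OC library gives the strain Duroc), and NT-D OC served as the starting library for NT-D and NT-LW alike. Cloned embryos of a stage were pooled into 1 sample, so a fraction of embryos with a transcript and less of it in each embryo cannot be told apart, and neither can fewer cells of a type and less RNA per cell. Cloned embryos also grew in culture while IV-D embryos grew in the animal, and the clones were all male while IV-D embryos of both sexes were mixed in a library, so nuclear transfer, culture, oocyte source and sex cannot be told apart.

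Values are FPKM, fragments per unit of gene length, scaled to the depth of the library. The depth was 14952784 to 22991067 fragments per library, and whole fragments were recovered for 8603 of 8603 genes, so that each value carries a 95% counting interval (exact Poisson; exact Clopper-Pearson for a ratio). These intervals cover counting error only, and because cDNA was amplified and carried no molecular identifiers, they are too narrow even for that. With 1 library per condition no p-value exists between conditions, and a difference was called when it exceeded 1 on the log2(FPKM + 1) scale, provided that either library reached 1 FPKM. As a check of the labels, NANOG, a gene of the pluripotent ICM chosen after its values were seen, was at 9.80, 5.00 and 3.76 FPKM in IT of IV-D, NT-D and NT-LW and at 0 in the TE library of each group. KRT8, a keratin of trophectoderm, was at 626, 441 and 599.7 FPKM in IT of IV-D, NT-D and NT-LW. In TE it was at 549, 735 and 1033 FPKM, so it was higher in TE than in IT in the clones only. The NT-D MO library stood apart in its oocyte genes, 12 in the table, which summed to 482 FPKM against 18.2 in IV-D MO and 66.6 in NT-LW MO.

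In the Sscrofa11.1 build, with RefSeq gene models, KLF4 lies at chr1:248604817-248609574 on the minus strand, in 5 exons, with a coding length of 1461 bases. KLF17 lies at chr6:167176834-167188418 on the minus strand, in 3 exons, with a coding length of 1164 bases. No other protein-coding gene of the annotation overlaps either of them. The gene lengths recovered from the FPKM values were 3103 bases for KLF4, 3459 for KLF10 and 1955 for KLF17, of which that of KLF17 equals its RefSeq transcript. The stretch that codes for the zinc fingers is the part in which family members resemble each other most, and is shown for KLF4 and KLF17 because counting reads per gene depends on telling them apart. It spans codons 405 to 485 of KLF4 and 282 to 362 of KLF17 and is written from the spliced coding exons, 5′ to 3′, with capitals at the 151 of 243 bases (62.1%) that are the same in both.
KLF4: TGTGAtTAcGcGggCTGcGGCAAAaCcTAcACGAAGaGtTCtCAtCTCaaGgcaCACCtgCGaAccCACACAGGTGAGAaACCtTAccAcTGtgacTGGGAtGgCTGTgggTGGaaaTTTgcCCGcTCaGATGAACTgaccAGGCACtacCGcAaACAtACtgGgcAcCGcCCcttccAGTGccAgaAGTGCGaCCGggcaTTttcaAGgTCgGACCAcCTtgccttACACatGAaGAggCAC
KLF17: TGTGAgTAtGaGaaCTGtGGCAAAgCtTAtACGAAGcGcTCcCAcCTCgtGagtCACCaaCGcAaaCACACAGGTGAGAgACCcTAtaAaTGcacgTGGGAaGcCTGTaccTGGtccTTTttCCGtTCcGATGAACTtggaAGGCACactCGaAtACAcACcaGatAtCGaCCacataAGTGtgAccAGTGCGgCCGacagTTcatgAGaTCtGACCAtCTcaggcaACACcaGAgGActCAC
The longest run of identical bases between a transcript of either gene and one of 25 other KLF or SP genes was 20 bases for KLF4 and 18 for KLF17, far below the length of a paired read. Only exact runs in these transcripts were searched. Reads placed with mismatches or elsewhere in the genome were not covered, and KLF10 was not searched in this way.

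The 250 bases before the RefSeq transcript starts of KLF4 and KLF17 are shown because both genes rose in the same step of development and because their own family binds CACCC sequences. Capitals mark CACCC or its reverse complement GGGTG.
KLF4, chr1:248609575-248609824, minus strand: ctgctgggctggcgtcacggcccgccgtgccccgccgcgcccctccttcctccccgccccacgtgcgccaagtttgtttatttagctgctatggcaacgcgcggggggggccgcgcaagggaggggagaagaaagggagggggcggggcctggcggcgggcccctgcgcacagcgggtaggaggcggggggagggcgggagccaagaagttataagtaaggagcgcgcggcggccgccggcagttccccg
KLF17, chr6:167188419-167188668, minus strand: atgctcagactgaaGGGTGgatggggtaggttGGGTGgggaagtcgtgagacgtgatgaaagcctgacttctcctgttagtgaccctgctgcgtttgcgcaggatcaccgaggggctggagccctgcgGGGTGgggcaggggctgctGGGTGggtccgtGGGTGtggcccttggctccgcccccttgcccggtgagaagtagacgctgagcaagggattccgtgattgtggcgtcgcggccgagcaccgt
CACCC was searched on both strands and was found 0 times before KLF4 and 5 times before KLF17, where all 5 matches read GGGTG. Of 19556 protein-coding gene starts with a window of the same length, 53.9% held at least 1 match and 0.946% held 5 or more. The GC box GGGCGG occurred 3 times before KLF4 and 1 time before KLF17 (45.9% of all windows held it), and neither CCAAT (31.9%) nor TATAAA (9.77%) was in these windows. No match of 1 motif overlapped a match of another. GC content was 73.2% for KLF4 and 64.4% for KLF17, with a median of 57.6% over all windows. These matches describe the letters only, and no binding was measured.

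KLF10 lay lower in every library up to 2C than in any later one, while the early and late levels of KLF4 and KLF17 overlapped. KLF4 RNA was present in every library, KLF10 was close to 0 and KLF17 at or close to 0 up to the 2-cell stage, and all rose in IV-D between the 2-cell and the 4-cell stage.

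KLF4 in IV-D was at 2.42 FPKM in OC, 4.74 at 1C, 2.16 at 2C, 34.6 at 4C, 61.3 at 8C, 42.8 at MO, 23.6 in IT and 3.84 in TE. In NT-D it was at 4.41 FPKM in OC, 5.95 at 1C, 2.55 at 2C, 2.27 at 4C, 84.6 at 8C, 25.2 at MO, 9.87 in IT and 2.11 in TE. In NT-LW it was at 2.79 FPKM at 1C, 4.53 at 2C, 17.7 at 4C, 79.3 at 8C, 36.1 at MO, 9.74 in IT and 2.81 in TE. The 8-cell library was the highest of each group, and both cloned 8-cell libraries lay above that of IV-D. In the order of all 23 libraries the highest 5 ran from NT-D 8C (84.6, interval 82.3 to 87.0) through NT-LW 8C (76.9 to 81.8), IV-D 8C (59.4 to 63.2) and IV-D MO (41.2 to 44.4) to NT-LW MO (34.5 to 37.7), each beyond counting error of the next lower, except that NT-LW MO could not be separated from IV-D 4C (33.0 to 36.3). At the lower end, the last 7 libraries of the order, from NT-LW TE at 2.81 to NT-D TE at 2.11, did not differ from their neighbours beyond counting error, and NT-D 4C was among them.

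KLF10 in IV-D was at 0.0677 FPKM in OC, 0.366 at 1C, 0.113 at 2C, 22.5 at 4C, 22.0 at 8C, 25.6 at MO, 26.0 in IT and 4.29 in TE. In NT-D it was at 0.0476 FPKM in OC, 0.197 at 1C, 0.287 at 2C, 4.54 at 4C, 10.3 at 8C, 14.1 at MO, 8.44 in IT and 3.50 in TE. In NT-LW it was at 0.311 FPKM at 1C, 0.314 at 2C, 15.0 at 4C, 6.68 at 8C, 23.03 at MO, 9.37 in IT and 8.89 in TE. The 8 libraries up to the 2-cell stage lay between 0.0476 and 0.366 FPKM, on 3 to 22 fragments each, and the 15 later ones between 3.50 and 26.0. In IV-D the level was flat from 4C to IT, between 22.0 and 26.0 FPKM. IV-D IT (24.8 to 27.2) and IV-D MO (24.5 to 26.8) could not be separated by counting error, nor could IV-D 4C (21.3 to 23.8) and IV-D 8C (20.9 to 23.1).

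KLF17 in IV-D was at 0 FPKM in OC, 1C and 2C, 96.2 at 4C, 16.9 at 8C, 12.4 at MO, 14.2 in IT and 0.821 in TE. In NT-D it was at 0 FPKM in OC, 0.0633 at 1C, 0.0283 at 2C, 0 at 4C, 6.23 at 8C, 16.5 at MO, 2.56 in IT and 1.18 in TE. In NT-LW it was at 0.0751 FPKM at 1C, 0 at 2C, 10.7 at 4C, 3.56 at 8C, 14.8 at MO, 2.45 in IT and 3.30 in TE. The 4-cell library of IV-D, with 2981 fragments, stood far above all others, and the next in order was IV-D 8C with 678. No fragment was counted in 6 libraries, NT-D 4C among them, where a count of 0 allows up to 3 fragments or 0.102 FPKM. IV-D 8C, NT-D MO and NT-LW MO (15.6 to 18.2, 15.2 to 17.8 and 13.5 to 16.1 FPKM) followed each other within counting error.

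**Figure D1:**
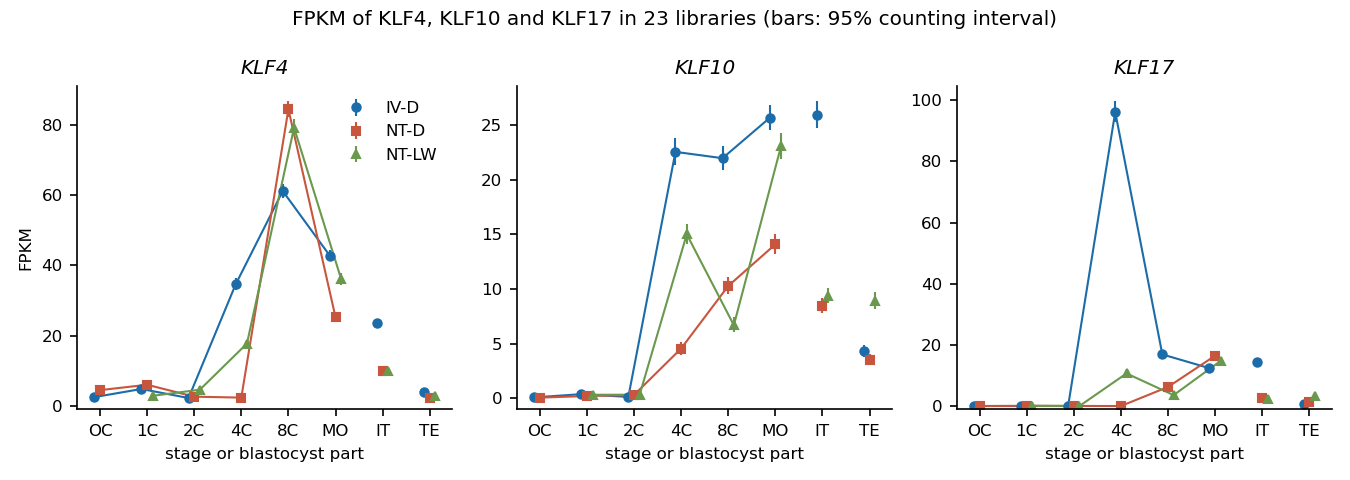
FPKM (linear axes) of KLF4, KLF10 and KLF17 by stage and blastocyst part in IV-D, NT-D and NT-LW, 1 library per point, with 95% counting intervals as bars and lines joining OC to MO. KLF17 reaches 96.2 FPKM at the IV-D 4-cell stage and 0 at the NT-D 4-cell stage, KLF4 peaks at 8C in every group, and KLF10 stays between 22.0 and 26.0 FPKM from 4C to IT in IV-D only.

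Successive stages of a group were compared to time the rise and fall of each gene. Of 63 steps, 33 were called, 14 higher and 19 lower, and 17 were not called. The other 13 were not compared because both libraries were below 1 FPKM. The share of all compared genes called in either direction ran from 7.14% (NT-LW, 1C to 2C) to 63.2% (IV-D, 4C to 8C). The step from 2C to 4C in IV-D raised KLF4 16.0-fold (interval 13.6 to 19.03), KLF10 199-fold (105 to 437) and KLF17 at least 1441-fold against the level of 3 fragments at 2C, while 34.4% of compared genes were called higher in that step. KLF17 was the 39th of 7300 compared genes by the size of its rise. In NT-LW the same step raised KLF4 3.91-fold (3.42 to 4.47), KLF10 47.8-fold (31.4 to 76.6) and KLF17 at least 141-fold, with 16.5% of genes called higher. In NT-D it raised KLF10 alone, 15.8-fold (9.78 to 27.1), with 17.3% of genes called higher, and this call was lost with a minimum of 5 FPKM. There KLF4 was at 0.893 of its 2C level (0.688 to 1.16), and KLF17 went from 1 fragment to 0.

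From 4C to 8C the genes parted. KLF4 rose 37.2-fold (30.7 to 45.6) in NT-D, the 43rd largest rise of 7830 genes (31.4% called higher), and 4.48-fold (4.19 to 4.80) in NT-LW (28.1%). In IV-D it was 1.77-fold higher (1.67 to 1.88), a difference of 0.81 on the log2(FPKM + 1) scale that was not called. KLF17 fell 5.70-fold (5.24 to 6.20) in IV-D and 2.99-fold (2.42 to 3.72) in NT-LW, where 28.1% and 25.6% of genes were called lower, and rose at least 61.0-fold in NT-D. KLF10 did not pass the rule in IV-D (a log2 difference of -0.04), fell 2.24-fold (1.99 to 2.53) in NT-LW and rose 2.26-fold (1.95 to 2.63) in NT-D, the last a call that was lost under both other scalings (log2 differences of 0.81 and 0.75).

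From 8C to MO, KLF4 fell in both clones, 3.35-fold in NT-D (3.16 to 3.55) and 2.20-fold in NT-LW (2.08 to 2.32), with 12.0% and 12.4% of genes called lower, the NT-LW call being lost when libraries were rescaled to the same sum (-0.89). None of the 3 was called in IV-D in this step, where 25.9% of genes were called in either direction. KLF17 rose 2.64-fold (2.27 to 3.08) in NT-D and 4.15-fold (3.38 to 5.13) in NT-LW, and KLF10 rose 3.45-fold (3.08 to 3.87) in NT-LW, with 31.6% and 22.4% of genes called higher. The NT-D call of KLF17 was lost under median-ratio scaling (0.82). At MO KLF17 was at 12.4, 16.5 and 14.8 FPKM in IV-D, NT-D and NT-LW. Beside these steps the oocyte genes summed to 71.3 and 18.2 FPKM at 8C and MO of IV-D, 448 and 482 in NT-D and 517 and 66.6 in NT-LW, and their part in the steps into and out of NT-D MO was not tested.

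From MO to TE all 3 genes fell in every group, where 24.6%, 38.5% and 40.3% of genes were called lower in IV-D, NT-D and NT-LW. KLF4 fell 11.2-fold (9.58 to 13.0) in IV-D, 11.98-fold (9.79 to 14.8) in NT-D and 12.8-fold (10.9 to 15.2) in NT-LW. KLF10 fell 5.98-fold (5.20 to 6.90), 4.02-fold (3.43 to 4.72) and 2.59-fold (2.34 to 2.87), the NT-LW call being lost under median-ratio scaling (-0.46). KLF17 fell 15.1-fold (10.02 to 23.7), 13.9-fold (9.96 to 20.1) and 4.48-fold (3.65 to 5.54). From MO to IT none of the 3 was called in IV-D, where 15.3% of genes were called in either direction, and KLF17 was at 12.4 and 14.2 FPKM there. In NT-D, with 35.1% of genes called lower, KLF17 fell 6.43-fold (5.23 to 7.98) and KLF4 2.56-fold (2.33 to 2.81), and in NT-LW, with 28.1%, KLF17 fell 6.04-fold (4.88 to 7.54), KLF4 3.71-fold (3.39 to 4.06) and KLF10 2.46-fold (2.24 to 2.70). Under median-ratio scaling the NT-D call of KLF4 (-0.63) and the NT-LW call of KLF10 (-0.67) were lost.

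Of the 45 comparisons of a clone library with the IV-D library of its stage, 14 were called lower, 1 higher and 20 not called, and 10 were not compared because both libraries were below 1 FPKM. The calls were all at 4C, at 8C, in IT or in TE. They comprised 3 for KLF4, 5 for KLF10 and 7 for KLF17. KLF4 in NT-LW 2C, at 4.53 FPKM against 2.16 in IV-D, was 2.10-fold higher (1.72 to 2.57) and was not called. It became a higher call with a pseudocount of 0.1, after rescaling to the same sum and by the exact binomial test. In that comparison 34.7% of all compared genes were called higher. Both clone groups share the IV-D libraries in these comparisons, so their differences are not independent of each other.

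At the 4-cell stage all 3 genes were lower in NT-D than in IV-D, where 13.2% of 7506 compared genes were called lower. KLF17, at 96.2 FPKM in IV-D and 0 in NT-D, was at least 942-fold lower and had the largest fall of all compared genes on the log2(FPKM + 1) scale, by 6.60. KLF4, at 34.6 and 2.27 FPKM, was 15.2-fold lower (12.5 to 18.7), and 35 genes, itself included, fell as far. KLF10, at 22.5 and 4.54 FPKM, was 4.96-fold lower (4.32 to 5.73), and 207 genes fell as far. The study had named KLF17 and KLF4 as low in cloned 4-cell embryos, so their falls and ranks here are a description. In NT-LW, where 9.43% of genes were called lower, KLF17 at 10.7 FPKM was 9.02-fold lower than in IV-D (8.12 to 10.04), while KLF4 (1.95-fold lower, 1.81 to 2.11) and KLF10 (1.503-fold lower, 1.38 to 1.64) were not called, KLF4 becoming a call after rescaling to the same sum (-1.06). NT-D 4C also lay below NT-LW 4C for all 3, KLF4 by 7.79-fold (6.38 to 9.61), KLF10 by 3.30-fold (2.86 to 3.82) and KLF17 by at least 104-fold, with 3.42% of genes called lower. In the order of IV-D, NT-LW and NT-D each gene was highest in IV-D and lowest in NT-D, outside the counting intervals. The paper describes its NT-D and IV-D replicates of this stage as relatively variable, with slightly lower correlation than at its other replicated stages. Those added replicates were not analysed here, so how far these differences exceed the variation between replicates was not tested.

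At the 8-cell stage KLF4 was not called, at 61.3 FPKM in IV-D against 84.6 in NT-D (1.38-fold higher, 1.32 to 1.44) and 79.3 in NT-LW (1.30-fold higher, 1.24 to 1.35). KLF10 was 2.14-fold lower in NT-D (1.95 to 2.34) and 3.29-fold lower in NT-LW (2.94 to 3.69), and KLF17 was 2.71-fold lower in NT-D (2.33 to 3.16) and 4.74-fold lower in NT-LW (3.88 to 5.83). In these comparisons 17.4% and 17.3% of genes were called lower, and the NT-D call of KLF10, with a log2 difference of -1.03, was lost under median-ratio scaling (-0.83). Between NT-D and NT-LW at 8C none of the 3 was called, and 6.15% of genes were. The study had named KLF10 as suppressed in cloned 8-cell embryos, so its fall in NT-D 8C is a description.

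At MO, where 22.6% and 15.7% of genes were called in either direction, none of the 3 was called in either clone, and the largest difference was 1.82-fold (1.68 to 1.97), KLF10 being lower in NT-D than in IV-D. Under median-ratio scaling KLF4 (-1.001) and KLF10 (-1.07) became lower calls in NT-D.

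In IT all 3 genes were lower in both clones. KLF4, at 23.6 FPKM in IV-D, was 2.39-fold lower in NT-D (2.18 to 2.62) and 2.42-fold lower in NT-LW (2.20 to 2.66). KLF10, at 26.0 FPKM, was 3.07-fold lower (2.80 to 3.37) and 2.77-fold lower (2.54 to 3.03). KLF17, at 14.2 FPKM, was 5.56-fold lower (4.51 to 6.92) and 5.81-fold lower (4.70 to 7.25), with 167 of 7095 and 146 of 7093 genes falling as far. The study picked KLF17 as an ICM transcript partly by its high value in IV-D IT. Its fall and rank in cloned IT are therefore a description. In IT 15.4% and 13.7% of genes were called lower in NT-D and NT-LW. NT-D and NT-LW IT did not differ beyond counting error for any of the 3 genes, with ratios of 1.01 (0.907 to 1.13) for KLF4, 0.901 (0.807 to 1.01) for KLF10 and 1.04 (0.789 to 1.38) for KLF17.

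In TE, KLF4 and KLF10 were not called in either clone, and KLF17 was higher in NT-LW, at 3.30 FPKM against 0.821 in IV-D, a 4.02-fold difference (2.57 to 6.54) on 114 and 24 fragments, a call lost with a minimum of 5 FPKM. Of 6755 genes, 6.26% were called higher there. KLF10 in NT-LW TE, at 8.89 FPKM against 4.29, was 2.07-fold higher (1.77 to 2.43), which did not pass the rule but did with a pseudocount of 0.1 or under median-ratio scaling. KLF10 was also lower in NT-D than in NT-LW TE, 2.54-fold (2.15 to 3.01), where 4.60% of genes were called lower. In that comparison KLF17, at 1.18 and 3.30 FPKM, was not called (a log2 difference of -0.98). It became a lower call with a pseudocount of 0.1, under both other scalings and by the exact binomial test.

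Relative to the median of all compared genes, the 14 lower differences ran from -0.88 to -7.58 on the log2(FPKM + 1) scale under the deposited scaling, rescaling to the same sum and median-ratio scaling.

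**Figure D2:**
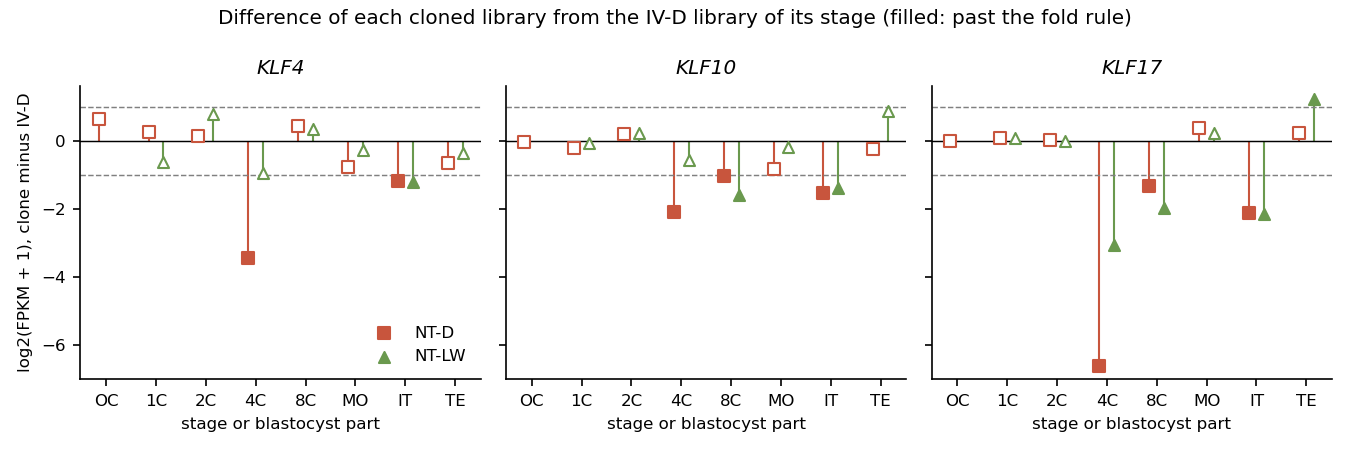
Difference of log2(FPKM + 1) between each cloned library and the IV-D library of its stage for KLF4, KLF10 and KLF17, with squares for NT-D, triangles for NT-LW, filled symbols for calls and dashed lines at differences of 1 and -1. The largest fall is that of KLF17 at the NT-D 4-cell stage, by 6.60, and in IT all 6 differences are filled and below -1.

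Marker genes of several cell types also differed in these comparisons, and the cells that their RNA came from were not measured. At the 4-cell stage the 7 fibroblast genes of the table summed to 8.12 FPKM in IV-D, 132 in NT-D and 150 in NT-LW, and 4 of 6 compared were called higher in NT-D (9.74% of all compared genes), led by S100A4, a calcium-binding protein of fibroblasts, at 0 FPKM in IV-D, 95.3 in NT-D and 114 in NT-LW. These genes were also found without nuclear transfer, summing to 66.0 FPKM in IV-D 1C against 93.6 in NT-D 1C and 94.7 in NT-LW 1C, with S100A4 at 39.9 FPKM in IV-D 1C. At 8C they summed to 3.90, 28.6 and 34.7 FPKM. The 12 oocyte genes summed to 2738 FPKM in IV-D 4C, 3393 in NT-D and 3583 in NT-LW, and to 71.3, 448 and 517 FPKM at 8C. Of these, 5 were called higher and 1 lower in NT-D 4C and 8 of 11 higher in NT-D 8C (10.8% of all compared genes), among them BMP15, an oocyte growth factor, at 2.02 and 48.4 FPKM in IV-D and NT-D 8C. At MO 11 of 11 compared were called higher in NT-D and 4 of 9 in NT-LW, beside 18.7% and 11.6% of all compared genes. The part of these genes in the KLF differences was not tested. BMP15 and KLF8 lie on the X chromosome, and the part of embryo sex in their values cannot be told apart from that of cloning.

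The 3 cumulus cell genes of the table summed to 9.17, 12.2 and 23.6 FPKM at 4C of IV-D, NT-D and NT-LW, with 0 of 2 called in NT-D, and 1 of 1 (FST, the activin antagonist follistatin) called higher in NT-D 8C. FST was also at 20.6 FPKM in IV-D MO and 52.4 in IV-D IT, so its RNA is not specific to cumulus cells. Of the 9 trophectoderm genes, 5 were compared in NT-D 4C, with 2 called higher and 1 lower, and 6 in NT-D 8C, with 0 higher and 3 lower. Over all compared genes 9.74% were higher and 13.2% lower at 4C, and 10.8% and 17.4% at 8C. Among 3 primitive endoderm genes, 1 of 2 compared (GATA4, an endoderm factor) was called higher in NT-D 4C and 0 in NT-D 8C.

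IT and TE of the same group were compared to see in which part of the blastocyst each gene was higher. In IV-D all 3 were higher in IT, where 18.0% of genes were called higher: KLF4 at 23.6 against 3.84 FPKM, 6.14-fold (5.25 to 7.22), KLF10 at 26.0 against 4.29, 6.05-fold (5.26 to 6.99), and KLF17 at 14.2 against 0.821, 17.3-fold (11.5 to 27.3). The study picked KLF17 as an ICM transcript by these IV-D libraries, so its value is a description. In NT-D, where 4.32% of genes were called higher, KLF4 was 4.68-fold higher (3.80 to 5.83) and KLF10 2.41-fold higher (2.04 to 2.85), and KLF17 was at 2.56 against 1.18 FPKM (2.17-fold, 1.47 to 3.26), not called but called with a pseudocount of 0.1. In NT-LW, where 5.07% were called higher, KLF4 alone was higher, 3.47-fold (2.90 to 4.16). There KLF10 was at 9.37 against 8.89 FPKM, a ratio of 1.05 (0.941 to 1.18), and KLF17 at 2.45 against 3.30, a ratio of 0.742 (0.563 to 0.977).

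The trophectoderm marker genes moved in both directions beside these values. Of the 9 trophectoderm genes, all compared in IT, 1 was called higher and 2 lower in each clone, with medians of 0.00 in NT-D and 0.41 in NT-LW on the log2(FPKM + 1) scale, beside -0.15 and -0.10 for all compared genes. The lower ones were TEAD4, a transcription factor upstream of the trophectoderm programme, at 14.3 FPKM in IV-D, 4.36 in NT-D and 6.64 in NT-LW, and ELF3, an epithelial ETS factor, at 11.07, 3.73 and 2.97, while KRT8 was at 626, 441 and 599.7 FPKM. The higher one, GATA3, a trophectoderm transcription factor, was at 5.42 FPKM in IT and 14.0 in TE of IV-D, at 17.1 and 18.5 in NT-D and at 14.4 and 15.1 in NT-LW. The 9 trophectoderm genes of the table summed to 2758 FPKM in IV-D IT, 3164 in NT-D IT and 3969 in NT-LW IT, against 2392, 4017 and 5649 in TE. How much ICM each IT piece held was not measured, and its part in the lower levels in cloned IT was not tested.

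**Figure D3:**
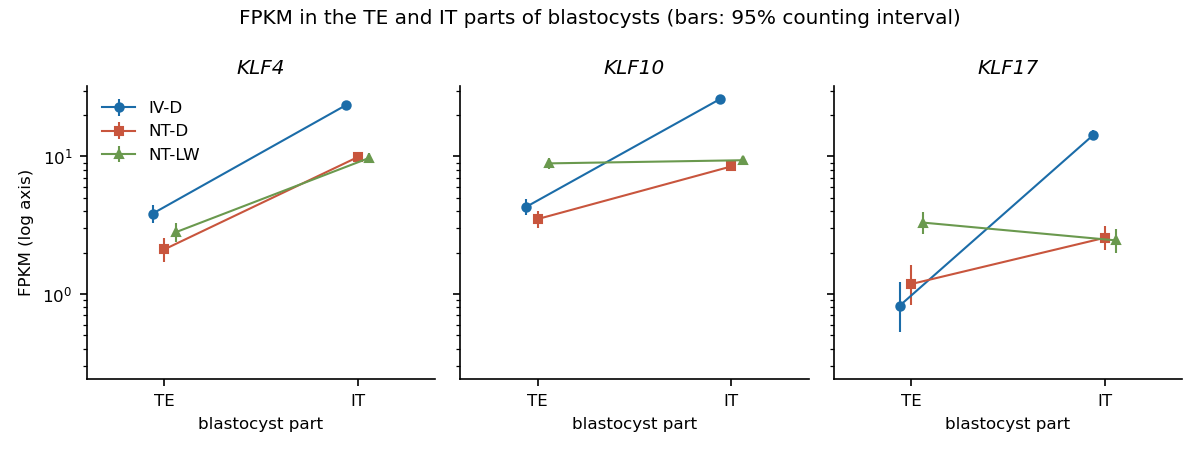
FPKM (log axis) of KLF4, KLF10 and KLF17 in TE and IT of each group, 1 library per point, with 95% counting intervals as bars. The IV-D lines rise 6.14-, 6.05- and 17.3-fold from TE to IT, and those of NT-LW are nearly level for KLF10 (1.05-fold) and fall for KLF17 (0.742).

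The 3 genes made up different shares of the RNA of the 8 KLF genes in the table, summed per gene length as FPKM. Up to 2C the sum was 6.04 to 16.5 FPKM in every group and KLF4 was the highest KLF gene. At 4C the sum was 179 FPKM in IV-D, 57.6 in NT-LW and 18.0 in NT-D. KLF17 was the highest in IV-D with 53.6% of the sum, KLF4 in NT-LW with 30.7% and KLF10 in NT-D with 25.3%, and the 3 together took 85.5%, 75.3% and 37.9%. At 8C KLF4 was the highest in all groups, with 40.4% in IV-D, 68.9% in NT-D and 72.5% in NT-LW.

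From MO on KLF5, a factor of trophectoderm and ICM that shares targets with KLF4, was the highest of the table's KLF genes in every group. KLF2, which the study named among its blastocyst genes, is not in the table. In IT it was at 43.3 FPKM in IV-D, 99.0 in NT-D and 110 in NT-LW, called higher in both clones (with 9.47% and 8.70% of genes), while KLF4, KLF10 and KLF17 together took 55.4%, 16.5% and 15.8% of the sum. In TE their share was 9.63%, 5.02% and 10.8%.

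**Figure D4:**
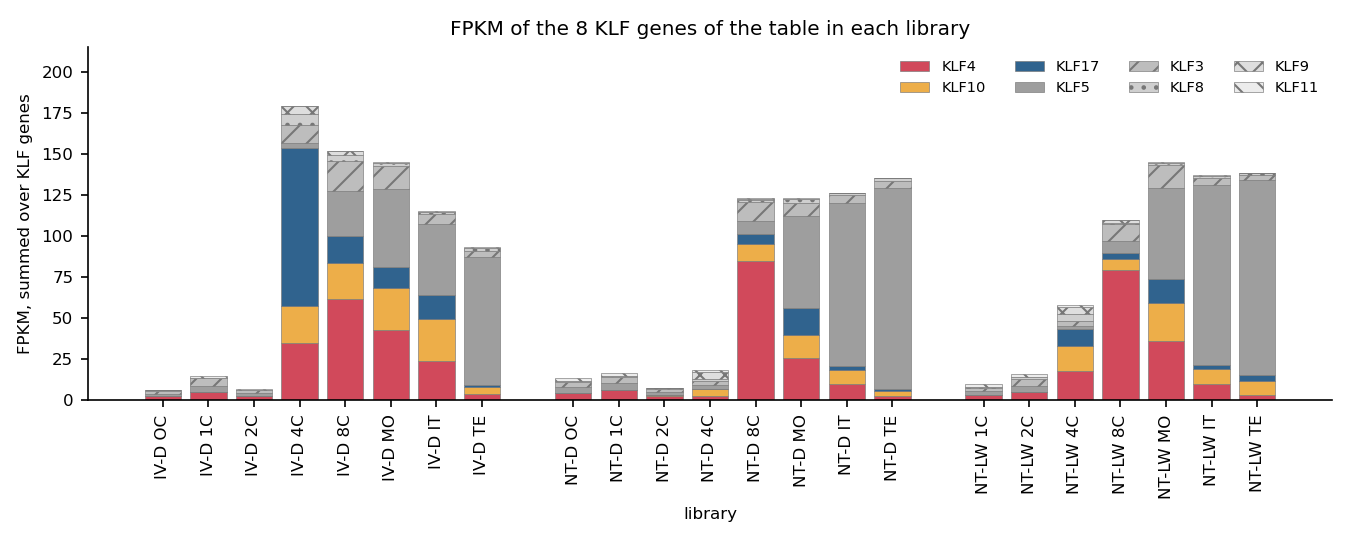
FPKM of KLF4, KLF10 and KLF17 (coloured) and of KLF5, KLF3, KLF8, KLF9 and KLF11 (grey), stacked for each of the 23 libraries. At 4C the stack is 179 FPKM high in IV-D and 18.0 in NT-D, and KLF5 is the largest part from MO on.

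Of the 10 other KLF and SP genes, 1 was called higher (SP5, a target of Wnt signalling, from 1.03 to 3.75 FPKM) and 2 lower (KLF3, from 11.1 to 2.15, and KLF8, from 6.65 to 1.29) in NT-D against IV-D at 4C, where 9.74% of all compared genes were higher and 13.2% lower. KLF3 and KLF8 both bind the corepressor CtBP. At 8C 0 were higher and 3 of 8 compared were lower, beside 10.8% and 17.4% of all compared genes: SP1, a general activator at GC boxes, from 12.8 to 3.24 FPKM, KLF5 from 27.1 to 7.91, and KLF8 from 3.86 to 0.875. KLF9, a close relative of KLF10, was at 4.61, 4.29 and 4.27 FPKM at 4C of IV-D, NT-D and NT-LW, up from 0.112, 0.130 and 0.200 FPKM at 2C. KLF11, the other TGF-beta-induced member, was at 0.449 FPKM in IV-D 4C and 1.07 in NT-D 4C and was not called. In NT-LW 2 of 9 compared were higher and 1 lower at 4C (10.8% and 9.43% of all compared genes), and 2 of 8 higher and 3 lower at 8C (16.3% and 17.3%). The median difference in NT-D was 0.13 over the 10 genes at 4C and -0.70 over the 8 compared at 8C on the log2(FPKM + 1) scale, beside -0.02 and -0.12 for all compared genes.

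Of 15 pluripotency genes in the table, all compared, 3 were called higher and 4 lower in NT-D against IV-D at 4C, beside 9.74% and 13.2% of all compared genes, with a median difference of -0.01, beside -0.02 for all of those. NANOG fell from 269 to 56.4 FPKM, MYC, a proliferation and reprogramming factor, from 49.8 to 10.9, and TFAP2C, a factor of trophectoderm and naive pluripotency, from 25.6 to 5.23, while DPPA5, an RNA-binding protein of pluripotent cells, rose from 355 to 1661. At 8C 1 of 13 compared was higher and 2 were lower, beside 10.8% and 17.4% of all compared genes, IL6ST, the shared receptor of the LIF family, falling from 44.4 to 7.39 FPKM and ESRRB, an orphan nuclear receptor, from 3.37 to 1.14. In NT-LW 2 of 14 were higher and 3 lower at 4C, beside 10.8% and 9.43% of all compared genes. At 8C of NT-LW 2 of 13 were higher and 7 lower, beside 16.3% and 17.3%. The median at 8C was -1.02 in NT-LW beside -0.02 for all compared genes, and -0.26 in NT-D beside -0.12. NANOG was at 78.1 FPKM in IV-D 8C and 29.8 in NT-LW 8C, and IL6ST at 44.4 and 9.56.

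Of 16 TGF-beta and activin genes in the table, KLF11 among them, 5 of 12 compared were called higher and 0 lower in NT-D at 4C, beside 9.74% and 13.2% of all compared genes, with a median of 0.65 beside -0.02. In NT-LW 4C 5 of 10 were higher and 0 lower, beside 10.8% and 9.43%, with a median of 1.03 beside 0.03. KLF10, itself induced by TGF-beta, was lower in NT-D at this stage. CCN2, a secreted matricellular protein that fibroblasts also express, rose from 3.37 to 65.0 FPKM, TGIF1, a repressor of SMAD targets, from 0.937 to 6.43, and ID2, an inhibitor of helix-loop-helix factors, from 1.76 to 9.35. At 8C 1 of 12 was higher and 2 lower in NT-D, beside 10.8% and 17.4%, and 2 of 12 higher and 2 lower in NT-LW, beside 16.3% and 17.3%, TGIF1 falling in NT-D from 37.2 to 6.03 FPKM and PMEPA1, an inhibitor of SMAD signalling, from 7.004 to 1.28. Of 5 corepressor genes in the table, 0 were called in NT-D at 4C. HDAC1, a histone deacetylase, alone was called in NT-D at 8C, falling from 29.6 to 12.0 FPKM. In NT-LW 4C, SIN3A was called lower, from 420 to 170 FPKM, and RBBP7 higher, from 28.6 to 63.1. In NT-LW 8C, SIN3A was called higher, from 11.4 to 25.2 FPKM, and HDAC1 lower, from 29.6 to 11.4. The shares of all compared genes are those given above for these groups and stages.

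Likeness of pattern was measured as Pearson's r of log2(FPKM + 1) over the 23 libraries with each of 7368 genes that had a symbol and reached 1 FPKM. It is a description, since the libraries share stages and depth. The genes most like KLF4 were KLF3 (r = 0.906), API5, TMC7, TFRC and RPP25 (r = 0.902). Those most like KLF10 were SUGP1 (r = 0.976), DHX15, SRSF5, RPRD1B and CHTOP (r = 0.960). Those most like KLF17 were ZNF408 (r = 0.921), CDK5RAP2, MED19, KLF10 (r = 0.899) and DDX5 (r = 0.898). Between the 3 genes themselves, r was 0.746 for KLF4 and KLF10, ranking KLF10 348th among the genes most like KLF4, 0.793 for KLF4 and KLF17, and 0.899 for KLF10 and KLF17. At 4C the gene most like each differed in how far it fell: KLF3 was at 11.1, 2.95 and 2.15 FPKM in IV-D, NT-LW and NT-D, SUGP1 at 8.95, 7.17 and 4.02, and ZNF408 at 1.81, 0.729 and 0.322. By their highest IV-D library, 14.7% of all genes were highest at 4C like KLF17, 17.4% at 8C like KLF4 and 12.4% in IT like KLF10. For KLF10 the IV-D values in IT and MO could not be separated by counting error.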

How the data were processed

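RNA of 23 libraries was measured, 1 for each stage or blastocyst part of IV-D, NT-D and NT-LW, and the study's donor cells and added replicates were not analysed here. From SMART-Seq v4 cDNA and NEBNext Ultra libraries the authors made paired-end reads, placed them on Sscrofa11.1 by HISAT2 2.0.4, assigned them to Ensembl genes by HTSeq 0.9.1 (both versions also in the submitters' processing notes) and deposited FPKM values. The step that chose the 8603 genes of the table is not given in the sources used here, and strand was not stated for the counting.

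The spacing of low FPKM values gave whole fragments, gene lengths and library depths for 100% of genes (tolerance 0.002 fragments; largest relative deviation 1.13e-09 among values of at least 100 fragments), by a method tested on simulated data. Depth had a median of 18896560 fragments, of which the table held 82.8% to 97.2%. FPKM already divides by this depth, so the values were compared as deposited.

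Groups were taken from sample titles. Calls needed a difference of log2(FPKM + 1) over 1 and FPKM of at least 1 in either library, over the whole table, with 1 added as the pseudocount, which understates changes of low genes. No count test was the main result, since a test between single libraries compares libraries and not conditions. An exact binomial test on the recovered fragments, with Benjamini-Hochberg adjustment over the table, a threshold of 0.005 and a fold over 2, was an alternative. Other alternatives were a pseudocount of 0.1, a minimum of 5 FPKM or none, rescaling each library to a sum of 1000000, median-ratio scaling of the fragments and, for likeness, Spearman's rho and the 8 IV-D libraries alone. A fold against a library without fragments was set against the level of 3 fragments in that library.

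Named genes were the 3 KLF genes, the other KLF and SP genes, the 5 most alike genes of each, and at most 4 called genes per list by size of difference in NT-D against IV-D at 4C or 8C. The lists covered the pluripotency network, TGF-beta and activin signalling, corepressors, and markers of trophectoderm, primitive endoderm, oocyte, fibroblast and cumulus cells. The genes and the lists were chosen with earlier results of these data known. KLF11 is in 2 lists, and TFAP2C is in 2 lists. Gene models and sequences were read from the RefSeq annotation of Sscrofa11.1, the sequence of KLF10 is not reported here, symbols were paired with 7371 of the 8603 Ensembl identifiers, and the scripts ran on python 3.11.15 (scipy 1.17.1, pandas 2.3.3, matplotlib 3.10.9, numpy 2.4.6).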

Additional observations from a re-analysis of the deposited data

Results flagged for a closer look

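KLF17 moved in opposite directions between the 4-cell and the 8-cell stage in different groups: log2(FPKM + 1) was higher by 2.85 in NT-D and differed by -2.44 in IV-D and -1.35 in NT-LW. KLF10 did so between the clone groups, with 1.02 in NT-D and -1.06 in NT-LW. Each group had 1 library per stage, so the difference between the groups was not tested. For KLF10 the rise in NT-D was not a call under either other scaling.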

How the results depend on the processing

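No paired analysis was possible because each condition had 1 library and no call came from a fit over replicates, and for the same reason no library could be left out within a condition. Over the 138 comparisons of the 3 genes, a pseudocount of 0.1 added 7 calls, a minimum of 5 FPKM removed 2, no minimum changed none, rescaling to the same sum added 5 and removed 2, median-ratio scaling added 4 and removed 6, and the exact binomial test on fragments added 9. No called difference changed sign under any of these 6 alternatives. Calls of clones against IV-D numbered 14 to 17 beside 15. The other scalings moved the median of all compared genes by over 0.1 in 28 (rescaling) and 33 (median-ratio) of 46 comparisons, by -0.35 to 0.28 and by -0.80 to 0.77. The KLF17 call in NT-LW TE was lost with a minimum of 5 FPKM.

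The lists and the likeness depended more on the settings. With a pseudocount of 0.1, calls in NT-D against IV-D were 5 of the pluripotency genes at 8C (beside 3), 8 of the TGF-beta and activin genes at 4C (5) and 6 at 8C (3), 1 of primitive endoderm at 8C (0), 1 of cumulus cells at 4C (0) and 5 of the KLF and SP genes at 4C (3). With median-ratio scaling they were 7 of the TGF-beta and activin genes at 8C (3) and 1 corepressor at 4C (0). Of the 5 genes most like each, Spearman's rho kept 3 for KLF4, 3 for KLF10 and 1 for KLF17, a pseudocount of 0.1 kept 3 for KLF4 and 0 for KLF17, and the IV-D libraries alone kept 1 for KLF4, 1 for KLF10 and 0 for KLF17.

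Depth fixed the counting error but says nothing of variation between embryos or between replicate samples. Neither was measured with the libraries used here, least of all where KLF17 rests on few fragments (24 in IV-D TE, 36 in NT-D TE). The study sequenced added replicates of NT-D and IV-D at some stages, which were not analysed here.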
